A study of Cavia porcellus with 13 samples.

Results

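A group of 9 genes of skin lipid synthesis was examined: AWAT1, AWAT2, DGAT2, FASN, ELOVL3, ELOVL5, CERS4, SOAT1 and LCAT. They are the rows of the deposited table whose symbol, case ignored, is on a list of 10 symbols, and make up 9 of 26855 genes; the tenth symbol, SCD, was not analysed here. The members were chosen by function with TPM differences between bitten and naive skin in these libraries already known, and AWAT1, CERS4 and LCAT had been singled out on those differences, so the values of these 3 are given as a description, with no test. All 9 passed the filter on low values (at least 1 TPM in at least 2 libraries), as did 14979 genes in all. AWAT2 reached 1 TPM in bitten libraries only, so it passed through them alone.

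The study sequenced total RNA of guinea pig skin 4 days after a tick bite, together with unbitten skin. Its 13 libraries form 6 sets when the prefix of their titles, CK1 or EF19-5, is read as the experiment, which the labels do not state. CK1 held 3 libraries of a first exposure, 3 of bitten skin labelled saliva immune, and 2 of naive, unbitten skin (naive replicates 1 and 2). EF19-5 held 2 libraries labelled 2 bites, 2 labelled 3 bites and 1 of naive skin (naive replicate 3). The labels give no strain, age, sex, tick species or way of saliva immunization, and do not say whether libraries of a group came from separate animals, so every p-value measures only the spread between these libraries.

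Sebaceous glands open into the hair follicle and release sebum, a mixture rich in wax esters, triglycerides and cholesterol esters, while keratinocytes make the ceramides and long fatty acids of the epidermal barrier. Fatty acids are built by FASN, lengthened by the ELOVL elongases and then joined to another molecule. That is a fatty alcohol for AWAT1 and AWAT2, diacylglycerol for DGAT2 and a sphingoid base for ceramide synthases such as CERS4. It is cholesterol for SOAT1 inside cells and for LCAT on lipoproteins. Several of these enzymes, DGAT2 and FASN above all, also work in fat cells. In whole skin, fewer cells of a type and less RNA per cell cannot be told apart.

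Values are TPM, a measure of transcript abundance that corrects for gene length and library size, and a difference is on the log2(TPM + 1) scale unless stated. Between 13270 and 14391 genes per library reached 1 TPM; the depth behind the values is unknown. Skeletal muscle genes took 9.45% and 16.5% of summed TPM in the CK1 naive libraries, 4.51% to 6.83% in first exposure, 2.35% to 9.95% in saliva immune, 2.34% in the EF19-5 naive library and 0.607% to 1.48% in 2 and 3 bites skin. Adipocyte genes took 0.226% and 0.328% in CK1 naive, 0.581% to 1.55% in first exposure, 0.637% to 1.198% in saliva immune, 0.457% in EF19-5 naive, 0.338% and 0.432% in 2 bites and 0.210% and 0.539% in 3 bites skin. Naive replicate 2, the library richest in muscle transcripts, had the lowest level of 8 of the 9 lipid genes, tied with naive replicate 1 for AWAT2, and naive replicate 3 had the lowest level of AWAT1.

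The name of the group was checked against sebocyte markers. KRT79, a keratin of the sebaceous duct, lay between 371 and 1946 TPM, FA2H, which hydroxylates fatty acids of skin sphingolipids, between 26.5 and 252, and ACSBG1, an acyl-CoA synthetase, between 63.4 and 317. Other markers were low: the melanocortin receptor MC5R reached 1.89 TPM at most, and MOGAT1 0.666. Summed over the 13 list genes in the table, sebocyte markers took 0.156% to 0.278% of TPM in first exposure, 0.106% to 0.204% in saliva immune and 0.0558% and 0.146% in CK1 naive skin, and 0.121% in EF19-5 naive, 0.129% and 0.140% in 2 bites and 0.128% and 0.178% in 3 bites skin. AWAT1, AWAT2, ELOVL3 and SOAT1 belong to that list. Epidermal keratinocyte genes took 0.987% and 2.08% of TPM in CK1 naive, 1.84% to 2.81% in first exposure, 1.48% to 2.60% in saliva immune, 2.56% in EF19-5 naive, 3.56% and 5.18% in 2 bites and 3.74% and 4.59% in 3 bites skin. Of the 8 tested, 8 were higher in first exposure (median difference 0.65) and 8 in saliva immune skin (0.44). Macrophage genes took 0.00637% and 0.0110% in CK1 naive, 0.0165% to 0.0189% in first exposure, 0.0161% to 0.0286% in saliva immune, 0.0164% in EF19-5 naive, 0.0253% and 0.0586% in 2 bites and 0.0126% and 0.0395% in 3 bites skin. All 8 tested were higher in first exposure (0.68) and in saliva immune skin (1.49), and none of either list passed limma. Of 15 adipocyte genes tested, 14 were higher in first exposure (1.36) and 14 in saliva immune skin (1.32). Of 12 sebocyte genes, 11 were higher in first exposure (1.197) and 12 in saliva immune skin (0.65). AWAT1, AWAT2, ELOVL3 and SOAT1 are counted there, so the sebocyte values do not stand apart from the 9 genes. In 2 and 3 bites skin the medians were -0.27 and -0.17 for adipocyte and 0.29 and 0.34 for sebocyte genes. Of 16 hair follicle genes tested, 11 were higher in first exposure (0.15, all genes 0.14) and 12 lower in saliva immune skin (-0.16). In 2 bites skin 16 were lower (-0.71) and in 3 bites skin 14 (-0.44). None of these genes passed limma. The 9 lipid genes, those singled out included, had medians of 1.37 in first exposure and 0.87 in saliva immune skin. The part of cell makeup in the differences that follow was not tested.

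**Figure D1:**
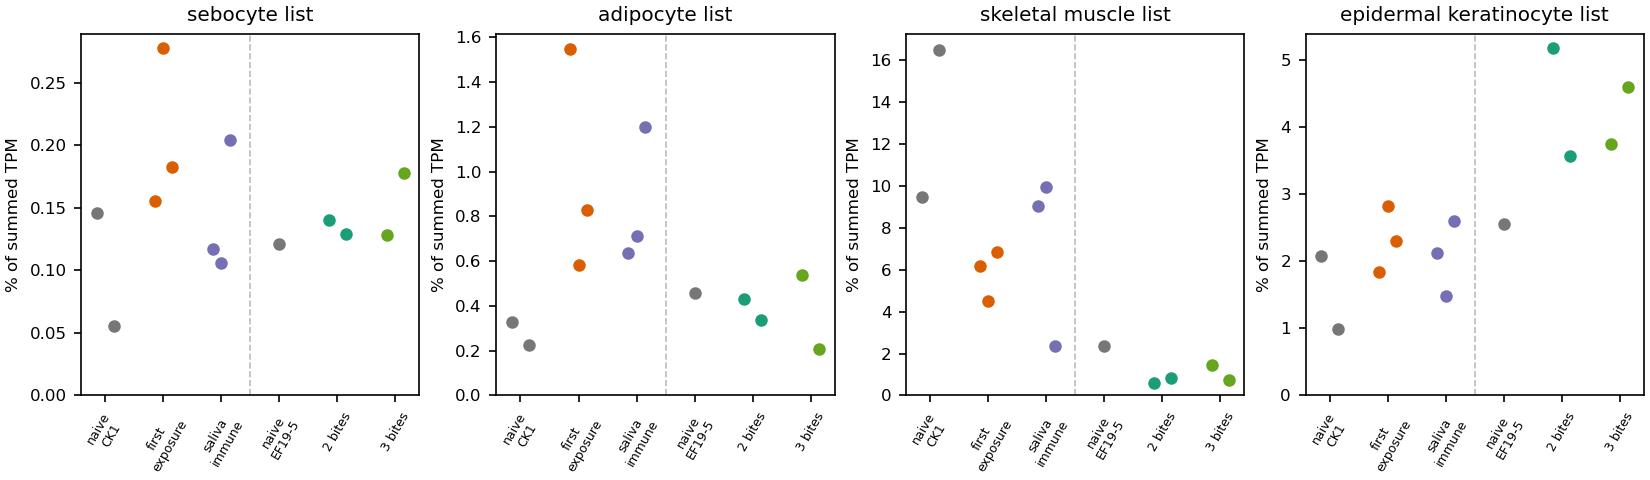
Share of summed TPM (%, linear axis from 0) taken by the sebocyte, adipocyte, skeletal muscle and epidermal keratinocyte marker lists, 1 point per library in the 6 sets, with a dashed line between the CK1 and EF19-5 experiments. Muscle genes reach 16.5% in naive replicate 2, and adipocyte genes are higher in all 6 bitten libraries of CK1 than in its naive ones.

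The 9 genes spanned a wide range of levels. Averaged over the 13 libraries, DGAT2 stood highest at 678 TPM, followed by FASN at 202, ELOVL5 at 149, CERS4 at 114, ELOVL3 at 46.6, SOAT1 at 36.3, AWAT1 at 29.1 and LCAT at 14.7, with AWAT2 last at 1.47. In first exposure against the naive skin of CK1 all 9 were higher, with a median difference of 1.37 against 0.14 over all genes tested, and all 3 first exposure libraries lay above both naive ones in 9 of 9; 21.9% of all genes showed that pattern and 14.1% the opposite one. In saliva immune skin all 9 were again higher (median 0.87, all genes 0.14), without overlap in 5 (background 18.5%; 6.22% of all genes lay lower without overlap, and 0 of the 9). In 3 bites skin 9 of 9 were higher than the EF19-5 naive library (median 0.33, all genes 0.08), 7 of them without overlap (background 41.1%) and 0 below (background 24.2%). In 2 bites skin 7 of 9 were higher (median 0.37, all genes -0.06), 6 without overlap above (background 28.6%) and 2, DGAT2 and FASN, below (background 43.3%). First exposure and saliva immune skin share the same 2 naive libraries, and 2 and 3 bites skin the same single one, so these counts are not independent of each other. The counts and medians over the 9, here and below, include AWAT1, CERS4 and LCAT, singled out on these differences. They are a description. In first exposure the median of 1.37 is the value of LCAT itself. AWAT2 was listed at 0 in both CK1 naive libraries, so any detection in the bitten ones puts it above without overlap.

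None of the 9 passed limma with Benjamini-Hochberg adjustment over all genes in any comparison. Of the 6 genes not singled out, 5 had an unadjusted p under 0.05 in first exposure (13.6% of all genes, 2044), 2 in saliva immune (11.6%, 1742), 0 in 2 bites (5.87%, 879) and 0 in 3 bites against naive skin (2.34%, 351). These 6 were also chosen with results known, so the counts are a description. AWAT2, among the 5 in first exposure, passed the filter through bitten libraries only. Few genes of any kind passed: 5 of 14979 (0.0334%) in first exposure, 1 (0.00668%) in saliva immune, 2 (0.0134%) in 2 bites and 1 (0.00668%) in 3 bites skin. Over the 6 genes that had not been singled out, the smallest adjusted p was 0.148 in first exposure (ELOVL5), 0.363 in saliva immune (SOAT1), 0.968 in 2 bites and 1 in 3 bites skin.

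**Figure D2:**
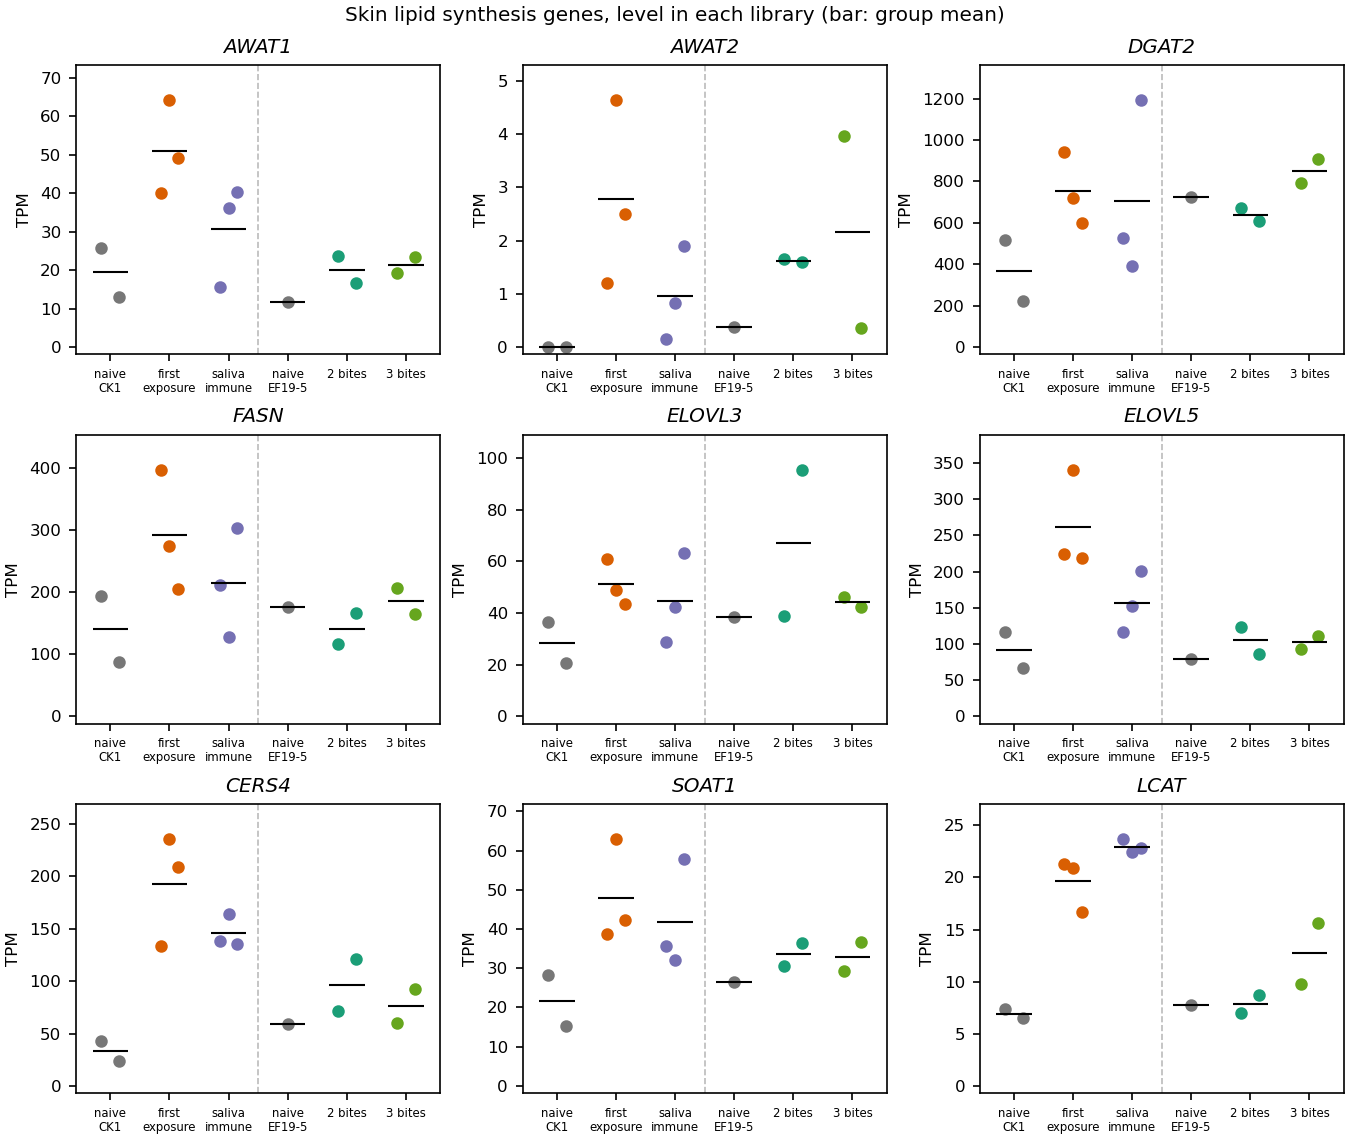
Level (TPM, linear axis) of each of the 9 genes in every library, by group, with a bar at the group mean and a dashed line between the CK1 and EF19-5 experiments. CERS4 and LCAT separate all 6 bitten CK1 libraries from the naive ones by a wide gap, while DGAT2 and FASN overlap. Of all genes, 10.6% are higher in all 6 without overlap.

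The wax ester enzymes came first. AWAT1, an acyl-CoA wax alcohol acyltransferase of the sebaceous gland (ENSCPOG00000003996), stood at 40.1, 64.2 and 49.1 TPM in the first exposure libraries, at 15.7, 36.3 and 40.3 in saliva immune and at 25.8 and 13.1 in CK1 naive skin. Every first exposure library was above the naive ones, while saliva immune replicate 1 lay between them. In EF19-5 it stood at 23.7 and 16.6 in 2 bites, 19.2 and 23.4 in 3 bites and 11.7 in naive skin. All 4 bitten libraries were thus above the naive one, as in 16.9% of all genes. The mean in first exposure was 51.1 ± 12.2 TPM (SD, n = 3) against 19.4 ± 8.95 (n = 2), a ratio of 2.63 and a difference of 1.40 (SE 0.407); for saliva immune skin, at 30.8 ± 13.2, the difference was 0.60 (SE 0.407), and it was 0.72 and 0.81 (SE 0.546 each) in 2 and 3 bites skin. Ordered by mean, AWAT1 ran from first exposure through saliva immune, 3 bites, 2 bites and CK1 naive to EF19-5 naive skin; the ranges of neighbours in that order overlapped except between CK1 naive and the single EF19-5 naive library.

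AWAT2, the second wax synthase of this family (ENSCPOG00000000245), was listed at 0 in both CK1 naive libraries and at 0.374 TPM in the EF19-5 naive one. First exposure libraries had 1.203, 4.63 and 2.51 TPM, saliva immune ones 0.152, 0.818 and 1.90, 2 bites ones 1.65 and 1.59, and 3 bites ones 3.96 and 0.354. It was thus detected in all 10 bitten libraries, but at levels near the filter, and 3 bites replicate 2 was as low as naive skin. The differences were 1.81 in first exposure (SE 0.571), 0.87 in saliva immune, 0.93 in 2 bites and 0.92 in 3 bites skin (-0.02 without 3 bites replicate 1). With a pseudocount of 0.1 in place of 1 the first of these was 4.66, so the size of a change from 0 is set by the pseudocount.

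DGAT2, which makes triglyceride from diacylglycerol (ENSCPOG00000004409), was the most abundant of the 9. It stood at 944, 719 and 602 TPM in first exposure, 525, 394 and 1192 in saliva immune and 518 and 221 in CK1 naive skin, and at 671 and 607 in 2 bites, 794 and 907 in 3 bites and 727 in EF19-5 naive skin. One saliva immune library, replicate 3, held the highest level of the series and another, replicate 2, lay below naive replicate 1. The difference was 1.13 in first exposure (SE 0.459, adjusted p = 0.339 by limma) and 0.89 in saliva immune skin (SE 0.459, adjusted p = 0.481), but -0.19 in 2 bites and 0.22 in 3 bites skin (SE 0.616 each). Saliva immune replicate 3 also had the highest adipocyte share of its group, 1.198%, and first exposure replicate 1, the highest of its group in DGAT2, 1.55%. In 3 bites skin the order was the opposite: replicate 2, at 907 TPM, had the lowest adipocyte share of the 13 libraries, 0.210%, and replicate 1, at 794 TPM, 0.539%. The part of fat cells in these levels was not tested.

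Among the enzymes that make and lengthen fatty acids, FASN, fatty acid synthase (ENSCPOG00000002297), followed a similar course. It stood at 397, 274 and 204 TPM in first exposure, 212, 127 and 304 in saliva immune and 193 and 88.2 in CK1 naive skin. All first exposure libraries exceeded both naive ones, while saliva immune replicate 2 lay between them. In EF19-5 it stood at 116 and 166 in 2 bites, 207 and 165 in 3 bites and 176 in naive skin. The difference was 1.102 (SE 0.427, adjusted p = 0.323 by limma) in first exposure, 0.62 in saliva immune, -0.34 in 2 bites and 0.07 in 3 bites skin; the last turned to -0.05 under median-of-ratios scaling and to -0.09 without 3 bites replicate 1.

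ELOVL5, an elongase of polyunsaturated fatty acids (ENSCPOG00000004234), showed a clearer gap in first exposure than FASN did. First exposure libraries had 224, 340 and 219 TPM, saliva immune ones 117, 152 and 201, and naive ones 116 and 66.6 in CK1, with 123 and 86.6 in 2 bites, 93.3 and 112 in 3 bites and 79.9 in EF19-5 naive skin. All 10 bitten libraries were above the naive skin of their own experiment, saliva immune replicate 1 by under 1 TPM. Taken separately, 10.6% of all genes showed that pattern in CK1 and 16.9% in EF19-5. The 3 first exposure libraries were above all others, a pattern whose share over all genes was not counted. The mean in first exposure was 261 ± 68.5 TPM (n = 3) against 91.5 ± 35.3 (n = 2), a difference of 1.53 (SE 0.312, adjusted p = 0.148 by limma), the largest among the 6 genes not singled out other than AWAT2; it was 0.79 in saliva immune, 0.37 in 2 bites and 0.35 in 3 bites skin. ELOVL3, an elongase of saturated and monounsaturated fatty acids known from sebaceous glands and hair follicles (ENSCPOG00000014884), lay at 60.7, 48.9 and 43.5 TPM in first exposure, 28.7, 42.4 and 63.3 in saliva immune and 36.4 and 20.8 in CK1 naive skin. Its highest value, 95.3, came from 2 bites replicate 2, the library with the largest hair follicle share (2.93%, against 2.65% in the EF19-5 naive library), while 2 bites replicate 1 had 38.8, close to the EF19-5 naive library at 38.5; 3 bites libraries had 46.3 and 42.3. Its difference of 0.85 in first exposure (SE 0.407, adjusted p = 0.386 by limma) was the smallest of the 9.

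CERS4, a ceramide synthase (ENSCPOG00000025376), had the largest difference of the 9 in both CK1 groups with a pseudocount of 1. With 0.1, AWAT2, listed at 0 in naive skin, came first at 4.66 and 2.95, and CERS4 stood at 2.56 and 2.19. It stood at 134, 235 and 209 TPM in first exposure, 138, 164 and 135 in saliva immune and 42.6 and 23.5 in CK1 naive skin. All 6 bitten libraries lay far above the naive pair: the lowest of them, at 134 TPM, exceeded the higher naive one, at 42.6, in a pattern (all 6 bitten above both naive) shown by 10.6% of all genes. The mean in first exposure was 193 ± 52.6 TPM (n = 3) and in saliva immune skin 146 ± 16.1 (n = 3), against 33.1 ± 13.6 (n = 2), ratios of 5.82 and 4.41 and differences of 2.53 and 2.16 (SE 0.338 each). In EF19-5 the 2 bites libraries had 71.3 and 121 TPM, the 3 bites libraries 59.7 and 92.4 and the naive library 58.9, so that 3 bites replicate 1 matched naive skin within 1 TPM; the differences were 0.65 and 0.33 (SE 0.453 each). Ordered by mean, CERS4 ran from first exposure through saliva immune, 2 bites and 3 bites to EF19-5 naive and CK1 naive skin, with overlapping ranges between first exposure and saliva immune and between 2 and 3 bites skin.

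The other ceramide synthases differed less than CERS4. In first exposure CERS2, the most widely expressed member of the family, differed by 0.38, CERS5 by 0.21 and CERS6 by 0.53, and in saliva immune skin by 0.29, 0.29 and -0.06, none of them past the limma threshold (smallest adjusted p = 0.457). Of the 7 elongases, those other than ELOVL5 and ELOVL3 differed by 0.35 (ELOVL1) to 1.21 (ELOVL4) in first exposure, ELOVL4 being the enzyme of the very long fatty acids of barrier ceramides, and none passed. Whether CERS4 differed from its relatives was not tested. These 2 families were picked for comparison after their values were seen.

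**Figure D3:**
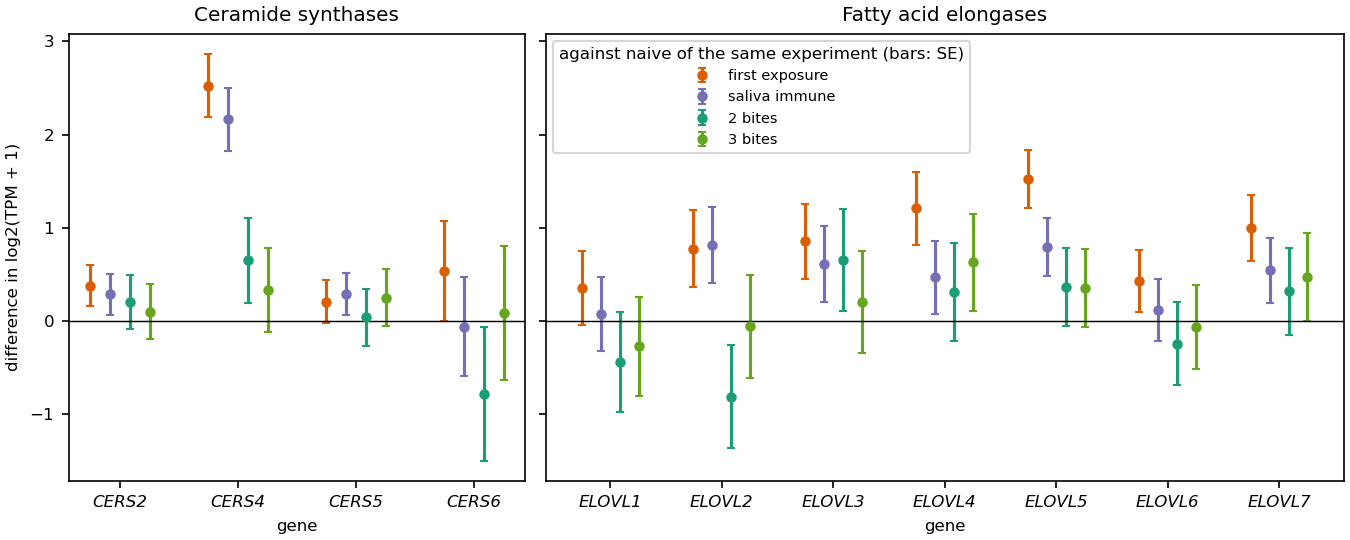
Difference from the naive skin of the same experiment, in log2(TPM + 1), of the 4 measured ceramide synthases and 7 measured fatty acid elongases, 1 point per bitten group with SE bars. CERS4 stands at 2.53 and 2.16 in the CK1 groups, where the other ceramide synthases lie between -0.06 and 0.53.

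The cholesterol esterifying enzymes closed the group. SOAT1, which stores cholesterol as esters inside cells (ENSCPOG00000013170), stood at 38.8, 62.8 and 42.2 TPM in first exposure, 35.6, 32.0 and 57.8 in saliva immune and 28.2 and 15.2 in CK1 naive skin, and at 30.6 and 36.5 in 2 bites, 29.3 and 36.6 in 3 bites and 26.6 in EF19-5 naive skin. Its 10 bitten libraries, from 29.3 to 62.8 TPM, were all above the 3 naive ones, from 15.2 to 28.2. Among the other 8 only CERS4 showed that pattern, as did 1.03% of all genes over both experiments. The pattern also sets bitten libraries of 1 experiment against naive skin of the other. Its gaps were narrow, 29.3 against 28.2 TPM in SOAT1 and 59.7 against 58.9 in CERS4. The SOAT1 difference was 1.14 in first exposure (SE 0.323, adjusted p = 0.226 by limma), 0.93 in saliva immune (adjusted p = 0.363), 0.32 in 2 bites and 0.29 in 3 bites skin, and 0.78 over all bitten against naive skin (SE 0.230, adjusted p = 0.161).

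LCAT, which esterifies cholesterol on circulating lipoproteins and is made mainly by the liver (ENSCPOG00000024823), had the smallest SE of the 9 in every comparison of 2 sets. It stood at 21.3, 20.9 and 16.7 TPM in first exposure, 23.6, 22.4 and 22.8 in saliva immune and 7.34 and 6.53 in CK1 naive skin. The lowest bitten library of CK1, at 16.7 TPM, was above the higher naive one, at 7.34, as in 10.6% of all genes. In 2 bites skin it stood at 7.02 and 8.75, on either side of the EF19-5 naive library at 7.81, and in 3 bites skin at 9.77 and 15.6. The means were 19.6 ± 2.55 TPM (n = 3) in first exposure, 23.0 ± 0.623 (n = 3) in saliva immune and 6.93 ± 0.576 (n = 2) in naive skin, ratios of 2.83 and 3.31; the differences were 1.37 and 1.60 (SE 0.208 each), against 0.00 in 2 bites and 0.60 in 3 bites skin (SE 0.279 each; 0.29 without 3 bites replicate 2). Ordered by mean, LCAT ran from saliva immune through first exposure, 3 bites, 2 bites and EF19-5 naive to CK1 naive skin, and the ranges of neighbours in that order overlapped only between 2 bites and EF19-5 naive skin. Of the 7 hepatocyte markers in the table, ALB and TTR were listed at 0 in every library and APOB reached 0.0104 TPM, AHSG 0.0839, FGA 1.25 and APOA1 1.55. CYP7A1, the rate-limiting enzyme of bile acid synthesis, was the exception, at 7.66, 2.41 and 3.81 TPM in first exposure, 4.26, 5.44 and 5.33 in saliva immune and 1.24 and 2.12 in CK1 naive skin, and at 3.97 and 4.04 in 2 bites, 10.4 and 2.14 in 3 bites and 2.21 in EF19-5 naive skin. It was thus higher in all 6 bitten CK1 libraries than in the naive ones, as LCAT was and as 10.6% of all genes were. Its differences were 0.98 and 1.18 (smallest adjusted p = 0.413 by limma), and its relation to LCAT was not tested.

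**Figure D4:**
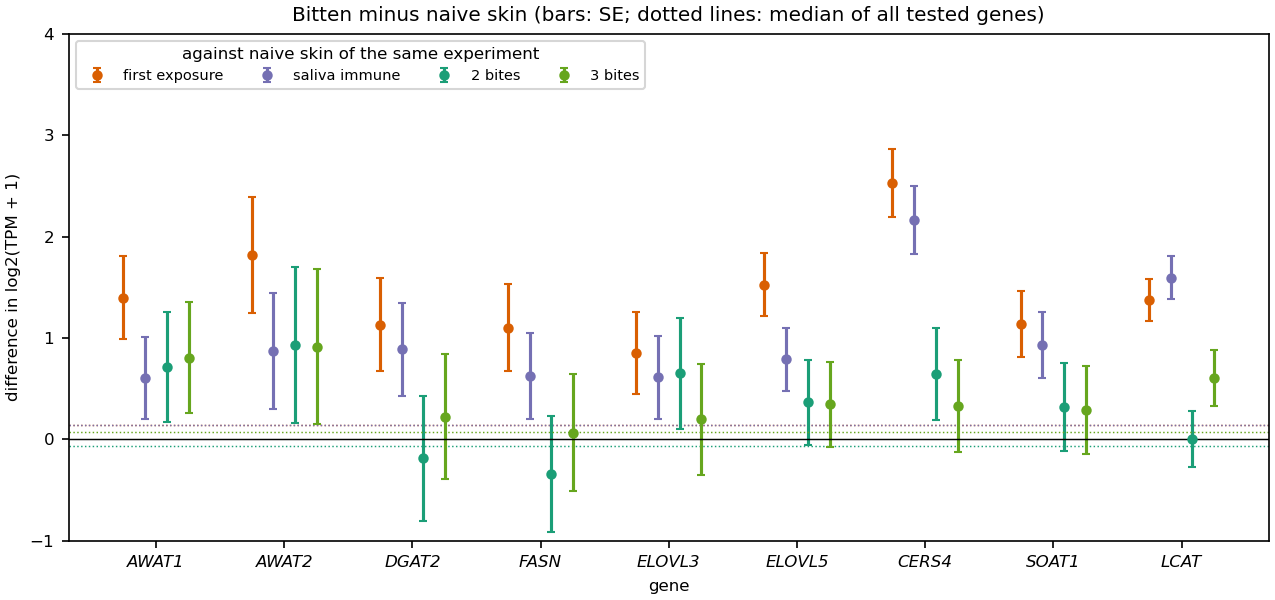
Difference between each bitten group and the naive skin of its own experiment, in log2(TPM + 1), for the 9 genes, with SE bars and dotted lines at the median of all tested genes in each comparison. In the CK1 groups every gene lies above 0.60, and in the EF19-5 groups the values run from -0.34 to 0.93.

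The bite effect was then compared between experiments, as the mean of the 2 bitten groups minus naive skin. In CK1 it was 2.34 for CERS4 (SE 0.302), 1.48 for LCAT (0.186), 1.34 for AWAT2, 1.16 for ELOVL5, 1.04 for SOAT1, 1.01 for DGAT2, 1.00 for AWAT1, 0.86 for FASN and 0.73 for ELOVL3. In EF19-5 it was 0.49 for CERS4 (SE 0.414), 0.30 for LCAT (0.254), 0.92 for AWAT2, 0.36 for ELOVL5, 0.31 for SOAT1, 0.02 for DGAT2, 0.76 for AWAT1, -0.14 for FASN and 0.42 for ELOVL3. Every bitten library lay above its naive skin for 5 genes in CK1 (AWAT2, ELOVL5, CERS4, SOAT1 and LCAT; background 10.6%) and for 5 in EF19-5 (AWAT1, ELOVL3, ELOVL5, CERS4 and SOAT1; background 16.9%), and below it for 0 in either (background 5.02% and 15.3%). The CK1 value was the higher for all 9, by 0.24 (AWAT1) to 1.85 (CERS4), with a median of 0.80 against 0.12 over all genes. It was also the higher for 64.8% of all genes and for 14 of 15 adipocyte genes tested (median 2.08). For the difference between experiments limma called no member and no gene (0 of 14979, 0%). An unadjusted p under 0.05 was found by limma for 421 genes (2.81%) and for 0 of the 6 genes not singled out, whose smallest adjusted p was 0.999. AWAT1 turned to -0.22 and ELOVL3 to -0.08 without naive replicate 2, AWAT2 to -0.05 without 3 bites replicate 2 and ELOVL3 to -0.01 without 2 bites replicate 1. The experiments differ in groups, in adipocyte and muscle share and in having 2 naive libraries against 1, and these cannot be told apart.

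Saliva immune skin was set against first exposure within CK1. In saliva immune skin 8 of the 9 genes were lower, with a median difference of -0.36 against 0.02 over all genes. ELOVL5, at 117 to 201 TPM against 219 to 340, was the only one of the 9 lower without overlap (1.35% of all genes), with a difference of -0.74 (SE 0.279). LCAT, at 22.4 to 23.6 TPM against 16.7 to 21.3, was the only one higher without overlap (5.41% of all genes), with a difference of 0.22 (SE 0.186). AWAT1 differed by -0.79, AWAT2 by -0.95, FASN by -0.48, CERS4 by -0.36, DGAT2 by -0.24 (0.09 without saliva immune replicate 2), ELOVL3 by -0.24 (0.04 without saliva immune replicate 1) and SOAT1 by -0.21. limma called 0 of 14979 genes (0%), with 351 (2.34%) at an unadjusted p under 0.05, ELOVL5 alone among the 6 genes not singled out.

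Between 3 and 2 bites skin the 9 genes were split, 4 higher and 5 lower in 3 bites skin, with a median of -0.02 against 0.13 over all genes. LCAT (0.60, SE 0.228) and DGAT2 (0.41, SE 0.503) were higher without overlap, as were 35.6% of all genes, while ELOVL3 was lower by 0.45 on the log2 scale, resting on the 95.3 TPM of 2 bites replicate 2 (0.19 higher without it). limma called 0 of 14979 genes (0%) here too, with 1615 (10.8%) at an unadjusted p under 0.05 and 0 of the 6 genes not singled out. Over all 10 bitten against all 3 naive libraries, with the experiment as a term, the 9 genes were higher by 0.51 (FASN) to 1.70 (CERS4), with a median of 0.88 against 0.10 over all genes; limma called 6 genes (0.0401%) and none of the 9. An unadjusted p under 0.05 was found by limma for 2366 genes (15.8%) and for 4 of the 6 genes not singled out, AWAT2 among them.

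How far these differences rest on naive replicate 2, with its 16.5% of muscle transcripts, varied among the genes. Without that library the difference in first exposure was 2.11 for CERS4, 1.299 for LCAT, 1.13 for ELOVL5, 0.94 for AWAT1, 0.71 for SOAT1, 0.54 for FASN, 0.52 for DGAT2 and 0.47 for ELOVL3. In saliva immune skin it was 1.74 for CERS4 and 1.52 for LCAT, but 0.50 for SOAT1, 0.39 for ELOVL5, 0.28 for DGAT2, 0.22 for ELOVL3, 0.14 for AWAT1 and 0.06 for FASN. Over all genes the median without it was 0.00 in first exposure and 0.01 in saliva immune skin. Over all bitten skin, FASN was then 0.09 and DGAT2 0.21. With TPM taken over genes outside the muscle and adipocyte lists, the first exposure differences were 2.43 for CERS4, 1.42 for ELOVL5, 1.303 for AWAT1, 1.29 for LCAT, 1.04 for SOAT1, 1.03 for DGAT2, 1.00 for FASN and 0.75 for ELOVL3.

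**Figure D5:**
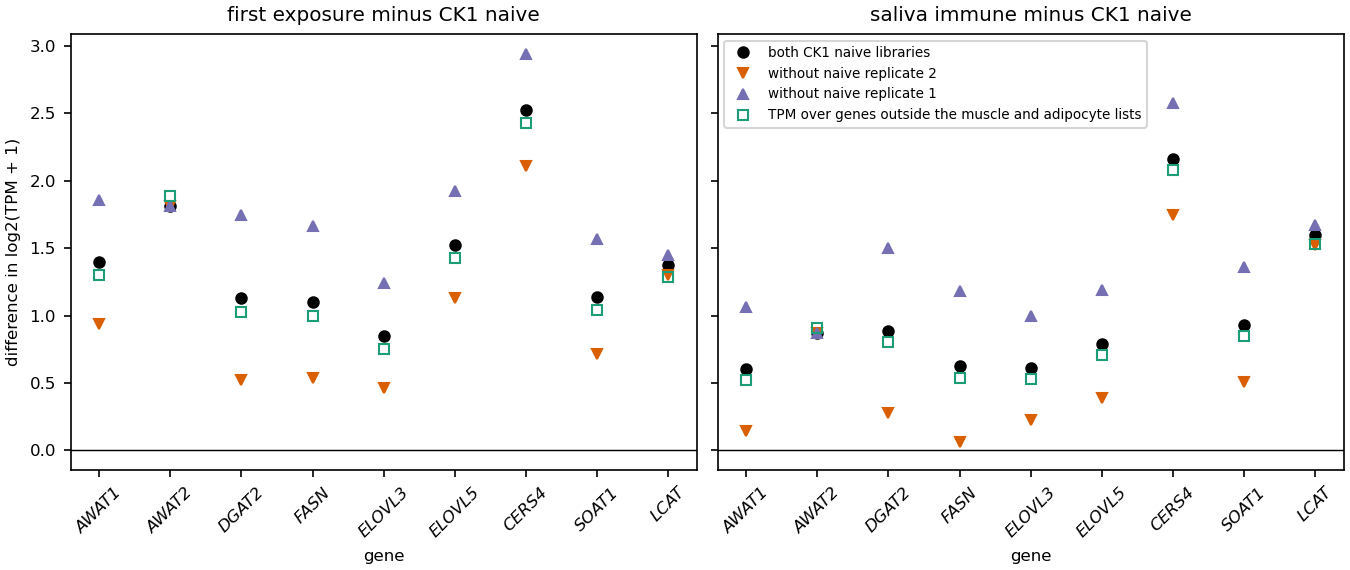
Difference of first exposure and of saliva immune skin from CK1 naive skin, in log2(TPM + 1), for the 9 genes with both naive libraries, without naive replicate 2, without naive replicate 1, and with TPM taken over genes outside the muscle and adipocyte lists. CERS4 stays at or above 1.74 and LCAT at or above 1.29 in all 4, while FASN in saliva immune skin runs from 0.06 to 1.19.

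The wider lipid pathways were read from 6 lists, none of whose tested members passed limma in any comparison. In first exposure, 11 of 12 wax ester and triglyceride genes were higher (median difference 1.105), 18 of 20 genes of fatty acid synthesis, elongation and desaturation (0.57), 20 of 20 ceramide genes (0.54), 16 of 19 cholesterol synthesis genes (0.44), 11 of 13 genes of cholesterol esterification and transport (0.55) and 10 of 14 regulators (0.35), where 64.5% of all genes were higher with a median of 0.14. In saliva immune skin the medians were 0.67, 0.44, 0.35, 0.22, 0.45 and 0.16 in the same order, against 0.14. In 2 bites skin they were 0.26, -0.01, 0.01, 0.14, 0.00 and 0.01, against -0.06, and in 3 bites skin 0.30, 0.15, 0.16, 0.08, 0.14 and 0.16, against 0.08. The 9 genes belong to these lists, so the lists do not stand apart from them.

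Some of the most abundant genes of these lists, other than the 9, had the following differences. ACSBG1 differed by 1.25 in first exposure and 0.69 in saliva immune skin, ELOVL4 by 1.21 and 0.47, TECR, the last enzyme of the elongation cycle, by 0.43 and 0.23, and DEGS1, which introduces the double bond of ceramide, by 0.43 and 0.13. In cholesterol synthesis FDPS, which makes farnesyl diphosphate, differed by 0.00 and -0.09, and squalene epoxidase SQLE by 0.69 and 0.40. APOE, the lipoprotein component, differed by 0.55 and -0.00. Of the regulators, the nuclear receptor RXRA differed by -0.01 and -0.14 and SREBF2, a transcription factor of cholesterol synthesis genes, by 0.28 and 0.02. FDPS and RXRA were thus nearly level in first exposure, where ACSBG1, ELOVL4 and SQLE were higher, as the 9 genes were.

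The genes whose levels followed each of the 3 singled out genes most closely over the 13 libraries, among 9772 with a symbol and a mean of at least 5 TPM, were read from Pearson's r of log2(TPM + 1). These values describe libraries that share their experiment, naive reference and tissue makeup, and no p is attached. For AWAT1 they were ADTRP (0.97), AADACL3 (0.96), PLCG2 (0.96), ELOVL5 (0.96) and DGAT1 (0.95), so that another of the 9 genes and the second triglyceride synthase were among its 5 closest. For CERS4 they were YIF1B (0.91), TMEM159 (0.90), RELB (0.88), COA8 (0.88) and SYAP1 (0.87). For LCAT they were BTBD6 (0.91), ZNF219 (0.91), PDPR (0.90), ENSCPOG00000027303 (0.89), whose symbol the table holds as a date, and DHRS11 (0.89). The 3 sets had no gene in common. Between AWAT1 and the members other than ELOVL5, r ran from 0.36 (DGAT2 and ELOVL3) to 0.76 (SOAT1).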

How the data were processed

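The values are TPM as deposited by the authors, with 26855 genes and a column per library. Per the submitters' processing notes, Trimmomatic, StringTie and DESeq were used, with no version and no role stated. No aligner, build or annotation is named there. TPM is a share of each library and keeps no depth, so no count test was run.

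Members and gene lists were chosen with earlier results of these data known. The 14979 genes that reached 1 TPM in 2 or more libraries were fitted with limma (3.58.1, R 4.3.3, data.table version 1.17.8) on the log2(TPM + 1) scale, empirical Bayes with trend, two-sided, Benjamini-Hochberg over all genes, threshold 0.05. A fold on this scale understates changes of low genes. Groups and the experiment (title prefix) entered 1 model; a bitten term with the experiment gave bitten against naive. Contrasts of 2 and 3 bites with naive skin rest on 1 naive library, assumed to vary like the other groups. Named genes are the 9 members, the 2 most abundant members of each pathway list (1 of them is not reported here) and the 5 genes most correlated with AWAT1, CERS4 and LCAT. No 2 libraries were identical (0 pairs). Alternatives were another pseudocount (0.1), no filter, median-of-ratios scaling, TPM without muscle and adipocyte genes, no experiment term, and leaving out each library. The code was tested on simulated data. No coordinates or sequences are given.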

Additional observations from a re-analysis of the deposited data

How the results depend on the processing

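No paired analysis was possible because the labels give the groups no shared replicate numbers. Differences of the 9 genes kept their sign in 162 of 162 refits in first exposure, saliva immune and all bitten against naive skin, in 160 of 162 in saliva immune against first exposure, 150 of 153 in 2 and in 3 bites against naive skin, 151 of 162 in 3 against 2 bites and 140 of 144 for the difference between experiments. Dropping the filter cannot change any difference, nor can leaving out a library of another set change a comparison of 2 sets. Those refits kept their sign by construction. The number of genes called moved by over 1.5 times in these fits. With a pseudocount of 0.1 it was 5 in saliva immune and 12 in all bitten against naive skin (1 and 6 as reported). Without the filter it was 3 in first exposure (5 as reported), 2 in saliva immune, 37 in 2 bites and 30 in 3 bites against naive skin (2 and 1 as reported), 4 in 3 against 2 bites and 24 for the difference between experiments (0 each as reported). Median-of-ratios scaling gave 3 in saliva immune skin. TPM without muscle and adipocyte genes gave 6 in saliva immune and 3 in all bitten skin. Without the experiment term there were 1 in first exposure, 2 in saliva immune, 254 in 2 bites, 2 in 3 bites and 3 in all bitten skin; there DGAT2 in 2 bites skin turned from -0.19 to 0.55. The cause was not tested.

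Every change in the number of the 9 genes called concerned CERS4 or LCAT, which were chosen on these differences, so the counts describe the fits and support nothing. The number was 1 against 0, from LCAT, in saliva immune against naive skin with a pseudocount of 0.1, with TPM outside the muscle and adipocyte lists and without the experiment term. Leaving out 1 library gave 0 to 2 members called in first exposure, 0 to 1 in saliva immune and 0 to 2 in all bitten against naive skin. These were CERS4 in first exposure without saliva immune replicate 3, CERS4 and LCAT in first exposure without 3 bites replicate 1 or 2, LCAT in saliva immune skin without either of the same libraries, and CERS4 and LCAT in all bitten skin without naive replicate 3, which leaves CK1 alone. The number of genes called ran from 1 to 19 in first exposure, 1 to 6 in saliva immune, 1 to 3 in 2 bites, 1 to 3 in 3 bites and 1 to 31 in all bitten against naive skin, 0 to 1 in saliva immune against first exposure, 0 to 4 in 3 against 2 bites and 0 to 1 for the difference between experiments. Without naive replicate 3, 2 and 3 bites could not be set against naive skin. The depth behind each TPM is unknown.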
